A study of Mus musculus with 6 samples.

Results

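The genes described here encode matrix metalloproteinases (MMPs), proteases of the ADAMTS family with their ADAMTS-like relatives, and the tissue inhibitors of metalloproteinases (TIMPs). They were chosen by symbol, as every gene whose symbol starts with Mmp, Adamts, Adamtsl or Timp followed by a number, and each was represented by 1 probe set, the one with the highest mean log2 signal over the 6 arrays among those that carry a single symbol. On this array 42 such genes, out of 18193 genes in all, had a probe set, and 78 probe sets named them. The RefSeq table listed 51 genes of these names, and 9 of them (Adamts2, Adamts13, Adamts14, Adamts17, Mmp15, Mmp21, Mmp25, Mmp27 and Mmp28) were not analysed here.

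The study compared fat of wild-type (WT) mice with fat of mice that lack Kdm4b, a demethylase of histone H3, in the whole body (KO). Total RNA came from epididymal fat, a white depot beside the testis, from subcutaneous white fat and from brown fat, and each depot was measured on 1 WT and 1 KO array, 6 arrays in all. All mice were males aged 2 months, kept at room temperature on chow and fasted for 6 hours before collection. The question behind the design was which genes differ in the fat of these mice, which become obese. How many mice stand behind an array and which exons were deleted is not stated in the labels, and a whole-body deletion does not separate fat cells from other tissues.

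MMPs are zinc-dependent enzymes that cut collagens, other matrix proteins and growth factors outside the cell, most of them made as inactive precursors. ADAMTS enzymes are secreted relatives that cut proteoglycans and trim procollagens, ADAMTS-like proteins resemble them but lack the protease domain, and TIMPs bind and block the active enzymes. In adipose tissue they take part in the remodelling of the matrix around growing fat cells, and fibroblast-like precursors, macrophages and fat cells are all known sources.

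Values are linear intensities as deposited, with a 2%-trimmed mean of 500 on every array. A signal of 63.2, the 40th percentile of the probe sets, served as a floor: lower values were raised to it before log2 was taken, and a fold whose dimmer side lies at the floor is a lower bound. Of the 42 genes, 35 were above the floor on at least 1 array and 22 on all 6. The other 7 were at or under it on every array: the collagenases Mmp1a, Mmp1b, Mmp8 and Mmp13, the stromelysin Mmp10, and Adamts18 and Adamts19. Levels are compared between arrays for 1 probe set at a time, because the signals of different probe sets have no common scale.

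With 1 array per group no test within a depot was possible. Genes with 2 or more bright probe sets gave a measure of technical spread: the KO minus WT log2 differences of probe sets of the same gene had an SD of 0.31 in epididymal fat, 0.32 in subcutaneous fat and 0.32 in brown fat. This spread holds no variation between mice, so a larger difference does not show an effect of genotype. Across depots, limma was fitted to all 6 arrays with depot and genotype as terms over 13232 genes, those that passed the floor on 3 arrays or more, 31 of them from the families described. In that fit the depots stand in for replicates of the genotype and the WT and KO arrays for replicates of the depot, so its p-values measure only the spread between these arrays. Whether the depots of a genotype came from the same mice is not known here, so agreement of the 3 depots may not be independent. Kdm4b itself read 226.7 on the WT and 188.4 on the KO array in epididymal fat, 272.1 and 156.7 in subcutaneous fat, and 134.6 and 95.2 in brown fat. The KO array was lower each time, but the epididymal difference of -0.27 is within the spread between probe sets. Whether this probe set lies in the deleted part is not known from the labels, so it is a limited check of the genotype.

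**Figure D1:**
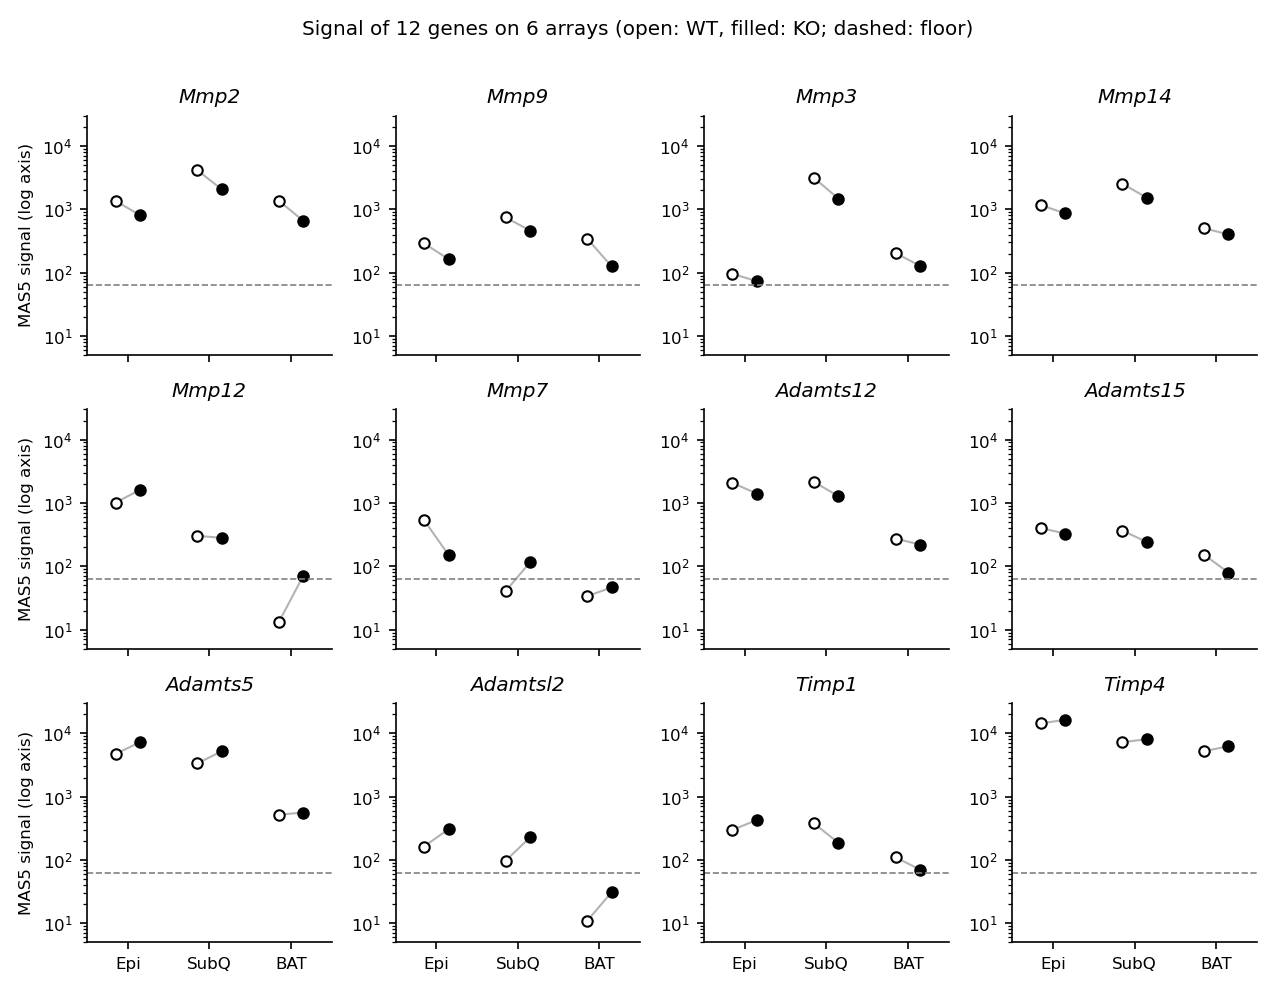
MAS5 signal (log axis) of 12 genes, 1 panel each, on the 6 arrays by depot (Epi, epididymal; SubQ, subcutaneous; BAT, brown), with open points for WT, filled points for KO, lines joining the arrays of a depot and a dashed line at the floor of 63.2. Mmp2, Mmp3, Mmp9 and Mmp14 were brightest on the subcutaneous WT array, while Adamts5, Timp4 and Mmp12 were brightest on the epididymal KO array.

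Several MMP genes lie side by side on mouse chromosome 9, in the order Mmp13, Mmp12, Mmp1b, Mmp3, Mmp1a, Mmp10, Mmp8, Mmp27, Mmp20 and Mmp7 in the RefSeq table, with a few other genes between them. Of these, 9 were on the array, 5 never passed the floor and 4 did so on at least 1 array: Mmp3 on 6 arrays, Mmp12 on 5, Mmp7 on 3 and Mmp20 on 2. The 250 bases before the RefSeq start of 3 of them (build GRCm38.p6, plus strand) are printed to show Mmp3, its relative Mmp10 and the macrophage elastase Mmp12 side by side, with capitals marking matches to the AP-1 motif TGANTCA and to the TATA box TATAAA. Mmp3 (chr9:7445572-7445821), Mmp10 (chr9:7502092-7502341) and the second of the RefSeq starts of Mmp12 (chr9:7347124-7347373) read as follows.
Mmp3: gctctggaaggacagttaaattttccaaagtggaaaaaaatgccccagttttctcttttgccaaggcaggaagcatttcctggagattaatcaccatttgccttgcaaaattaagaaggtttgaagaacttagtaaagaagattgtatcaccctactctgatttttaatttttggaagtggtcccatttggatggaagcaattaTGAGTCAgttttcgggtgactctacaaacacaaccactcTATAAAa
Mmp10: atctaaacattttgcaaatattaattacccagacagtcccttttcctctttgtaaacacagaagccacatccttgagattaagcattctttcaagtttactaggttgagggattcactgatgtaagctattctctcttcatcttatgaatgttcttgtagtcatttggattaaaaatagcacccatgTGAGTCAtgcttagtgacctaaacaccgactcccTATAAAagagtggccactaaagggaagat
Mmp12: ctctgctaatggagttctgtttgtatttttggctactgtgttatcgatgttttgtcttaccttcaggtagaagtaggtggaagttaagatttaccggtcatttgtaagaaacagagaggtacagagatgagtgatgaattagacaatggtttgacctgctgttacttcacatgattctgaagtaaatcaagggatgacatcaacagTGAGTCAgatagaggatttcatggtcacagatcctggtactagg

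The AP-1 match lies 46 to 40 bases before the start in Mmp3, 63 to 57 in Mmp10 and 44 to 38 in Mmp12. The TATA box match lies 7 to 2 bases before the start in Mmp3 and 29 to 24 in Mmp10, and the Mmp12 window printed has none. The window of the first Mmp12 start, not printed, holds neither motif. Both strands were searched, and the motifs do not share letters. Of the 42 genes, 27 had a promoter entry. Some genes have several starts, so the counts are of windows. TGANTCA was present in 8 of the 11 windows of the chromosome 9 cluster, 1 for each gene except Mmp8, and in 0 of 19 windows of the other members, against 6.75% of all 32851 promoter windows of this length. TATAAA was present in 7 of the 11 cluster windows and in 2 of the 19 others (Adamts1 and Adamtsl2), against 12.4% of all windows. Another motif searched, PEA3 (Ets, AGGAAG), is not marked in the sequences. It was present in 11 of the 27 genes, counted by gene, and in 29.5% of all windows. A match is a description of the letters and not a measured binding site.

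**Figure D2:**
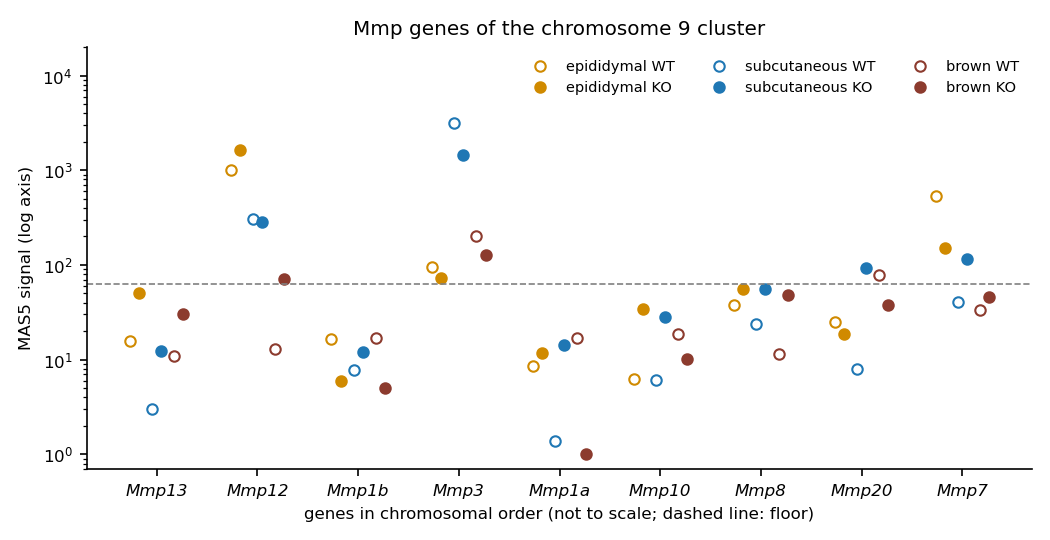
Signal of the 9 chromosome 9 MMP genes on the 6 arrays (log axis, points are single arrays, open for WT and filled for KO, coloured by depot, genes in chromosomal order without distances, the dashed line is the floor of 63.2). Mmp3 in subcutaneous fat and Mmp12 in epididymal fat stand far above the floor, and 5 genes lie at or under it throughout.

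The gelatinases, which cut denatured collagen and basement membrane collagen, were lower with the deletion in every depot. Mmp2 read 1353.2 (WT) and 806.8 (KO) in epididymal fat, 4160.5 and 2068 in subcutaneous fat, and 1365.6 and 659.5 in brown fat. All 3 pairs went the same way, and the subcutaneous KO array was nonetheless brighter than the epididymal and brown WT arrays. The KO array was 1.68-fold lower in epididymal fat, 2.01-fold lower in subcutaneous fat and 2.07-fold lower in brown fat, a mean log2 difference of -0.94 ± 0.16 (SD over 3 depots). The second Mmp2 probe set was lower in the KO array by the log2 values of -0.60, -1.07 and -0.99 in the same order.

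Mmp9, the gelatinase B of neutrophils and macrophages, read 290.1 (WT) and 163.4 (KO) in epididymal fat, 743.1 and 462 in subcutaneous fat, and 344.9 and 125.3 in brown fat. The brown KO array was the dimmest of the 6 and the subcutaneous WT array the brightest. It was 1.77-fold lower with the deletion in epididymal, 1.61-fold lower in subcutaneous and 2.75-fold lower in brown fat. The second Mmp9 probe set differed by -1.03 and -0.78 in the white depots, and in brown fat it read 70.6 (WT) and 22.9 (KO), where the KO signal under the floor allows only a bound of -0.16.

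Of the stromelysins, which cut proteoglycans, laminin and other MMP precursors, Mmp3 was bright only in subcutaneous fat. Mmp3 read 95.6 (WT) and 73.3 (KO) in epididymal fat, 3139.5 and 1464.8 in subcutaneous fat, and 203.7 and 127.9 in brown fat. With the deletion it was 2.14-fold lower in subcutaneous fat, 1.59-fold lower in brown fat and 1.30-fold lower in epididymal fat, where both signals were close to the floor and the difference of -0.38 was near the spread between probe sets. Mmp11, called stromelysin 3, read 276.2 (WT) and 203.9 (KO) in epididymal fat, 265.8 and 203.2 in subcutaneous fat, and 70.7 and 32 in brown fat. It was 1.36-fold and 1.31-fold lower in the white depots and at least 1.12-fold lower in brown fat.

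The membrane-bound MMPs were mixed. Mmp14, the membrane type 1 enzyme that activates the Mmp2 precursor at the cell surface, read 1160.6 (WT) and 861.8 (KO) in epididymal fat, 2529.5 and 1521.2 in subcutaneous fat, and 502.5 and 400.7 in brown fat. It was 1.35-fold, 1.66-fold and 1.25-fold lower in the KO array, so Mmp2 and its activator were both lower in each depot. The brown Mmp14 difference of -0.33 was near the spread between probe sets. Mmp23 read 985.1 (WT) and 845.2 (KO) in epididymal fat, 835.3 and 528.7 in subcutaneous fat, and 99.4 and 81.4 in brown fat, that is 1.17-fold, 1.58-fold and 1.22-fold lower. Its second probe set did not keep this order in subcutaneous fat, where it differed by 0.28. Mmp24 read 113.3 (WT) and 119.5 (KO) in epididymal fat, 85.4 and 112.4 in subcutaneous fat, and 211.2 and 162 in brown fat, and the KO array was lower only in brown fat. Mmp16 and Mmp17 stayed between 29.1 and 132.6 on all arrays, with no common direction over the depots.

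Among the other secreted MMPs, Mmp12, the elastase of macrophages, read 1012.6 (WT) and 1616.3 (KO) in epididymal fat, 303.3 and 281.3 in subcutaneous fat, and 13.1 and 70.7 in brown fat. KO exceeded WT by 1.60-fold in epididymal fat and was 1.08-fold lower in subcutaneous fat, and the brown KO array barely passed the floor. Mmp7, matrilysin, an enzyme of glandular epithelium, read 535.3 (WT) and 151.7 (KO) in epididymal fat, 40.6 and 116 in subcutaneous fat, and 33.8 and 46.4 in brown fat. It was 3.53-fold lower in the KO array of epididymal fat and at least 1.84-fold higher in that of subcutaneous fat. A list of male accessory gland genes moved in the epididymal depot in the same direction (median -0.64, 5 of 6 lower in the KO array, summed signal 5119.3 in WT and 3550.6 in KO) and in subcutaneous fat in the opposite one (median -2.09, 6 of 6 lower, 9236.5 and 1940.6), and its part in the Mmp7 values was not tested. Mmp19 ranged from 207.2 to 336.1 and differed by at most 1.25-fold in any depot.

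The aggrecanase-type ADAMTS genes, whose products cut aggrecan and versican, were mixed: Adamts5 and Adamts1 were higher and Adamts15 lower on the KO array of all 3 depots. Adamts5, a main aggrecanase, read 4728.8 (WT) and 7248 (KO) in epididymal fat, 3334.9 and 5187.9 in subcutaneous fat, and 518.1 and 561.1 in brown fat. KO exceeded WT by 1.53-fold in epididymal and 1.56-fold higher in subcutaneous fat, and 1.08-fold higher in brown fat, which is within the spread between probe sets. The other bright Adamts5 probe sets were higher in both white depots too, and in brown fat they differed by -0.47 and 0.03. Adamts1 read 1170.2 (WT) and 1218.8 (KO) in epididymal fat, 672.3 and 963.1 in subcutaneous fat, and 542.3 and 706.1 in brown fat. Its KO array was 1.04-fold, 1.43-fold and 1.30-fold higher.

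Adamts15 read 400.5 (WT) and 328.7 (KO) in epididymal fat, 365.6 and 241.6 in subcutaneous fat, and 152.8 and 79.6 in brown fat, 1.22-fold, 1.51-fold and 1.92-fold lower in the KO array. Adamts9 read 1484.5 (WT) and 1516.4 (KO) in epididymal fat, 935.7 and 1069.1 in subcutaneous fat, and 972.2 and 824.8 in brown fat, and no depot differed by over 1.18-fold on this probe set. Its other probe sets disagreed. In the same order of depots, one differed by 0.11, 0.60 and -0.67 and another by -0.32, -0.34 and -0.23. Adamts4 lay between 48.2 and 115.6, and Adamts8 and Adamts20 passed the floor on 1 array each.

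Adamts12, which cuts the cartilage protein COMP, read 2078.3 (WT) and 1398.6 (KO) in epididymal fat, 2141.6 and 1280.8 in subcutaneous fat, and 273.6 and 220.3 in brown fat. It was 1.49-fold, 1.67-fold and 1.24-fold lower in the KO array. Adamts16 read 104.5 (WT) and 154.4 (KO) in epididymal fat, 93.9 and 217.2 in subcutaneous fat, and 214.6 and 105.1 in brown fat. Its KO array was 2.31-fold higher in subcutaneous fat and 2.04-fold lower in brown fat. All Adamts16 values were within a few-fold of the floor, and its second probe set differed by 0.60 in epididymal and -0.05 in subcutaneous fat and was under the floor on both brown arrays. Adamts6 read 90.5 (WT) and 78.8 (KO) in epididymal fat, 174.9 and 115.4 in subcutaneous fat, and was under the floor in brown fat. Adamts10 lay between 237.2 and 403.2 and differed most in brown fat, where the KO array was 1.70-fold lower. Adamts3, a procollagen N-propeptidase, stayed between 34.5 and 76.8, and Adamts7 passed the floor only on the brown KO array.

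The ADAMTS-like genes had no common direction. Adamtsl2, which binds a latent TGF-beta binding protein, read 163.2 (WT) and 306.6 (KO) in epididymal fat, 97.5 and 227.4 in subcutaneous fat, and was under the floor in brown fat. KO exceeded WT by 1.88-fold in epididymal and 2.33-fold higher in subcutaneous fat. Adamtsl1 read 312.5 (WT) and 215.8 (KO) in epididymal fat, 345 and 211.6 in subcutaneous fat, and was under the floor in brown fat. It was 1.45-fold and 1.63-fold lower in the KO array, the reverse of Adamtsl2. Adamtsl4 read 753 (WT) and 823.4 (KO) in epididymal fat, 645.2 and 619 in subcutaneous fat, and 144.9 and 141.9 in brown fat, within 1.09-fold in every depot. Adamtsl3 lay between 174.1 and 319 and Adamtsl5 between 98.5 and 174.8.

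The 4 inhibitors had no common direction. Timp1, the inducible inhibitor, read 298.2 (WT) and 429 (KO) in epididymal fat, 377.5 and 186 in subcutaneous fat, and 110.1 and 70.5 in brown fat. Its KO array was 1.44-fold higher in epididymal fat, 2.03-fold lower in subcutaneous fat and 1.56-fold lower in brown fat. Timp2, which also bridges Mmp14 and the Mmp2 precursor, read 10235.6 (WT) and 9008 (KO) in epididymal fat, 10248.3 and 7545.8 in subcutaneous fat, and 2000.9 and 1819.3 in brown fat. It was 1.14-fold, 1.36-fold and 1.10-fold lower in the KO array. The epididymal and brown differences were within the spread between probe sets, and the subcutaneous one of -0.44 was above it. Of its 6 probe sets, one was under the floor on every array. The others were mixed in epididymal and brown fat and all lower in subcutaneous fat (-0.31 to -0.61). Timp3, held in the matrix, read 5933.6 (WT) and 5635.9 (KO) in epididymal fat, 5748.5 and 5626.5 in subcutaneous fat, and 3751.4 and 3943.8 in brown fat, within 1.05-fold in every depot. Timp4, an inhibitor abundant in fat cells, read 14337.2 (WT) and 16327 (KO) in epididymal fat, 7230.5 and 8063.4 in subcutaneous fat, and 5197.3 and 6257.3 in brown fat. The KO array was 1.14-fold, 1.12-fold and 1.20-fold higher, each less than the spread between probe sets of a gene, and the second Timp4 probe set was higher by 0.64, 0.95 and 0.22.

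**Figure D3:**
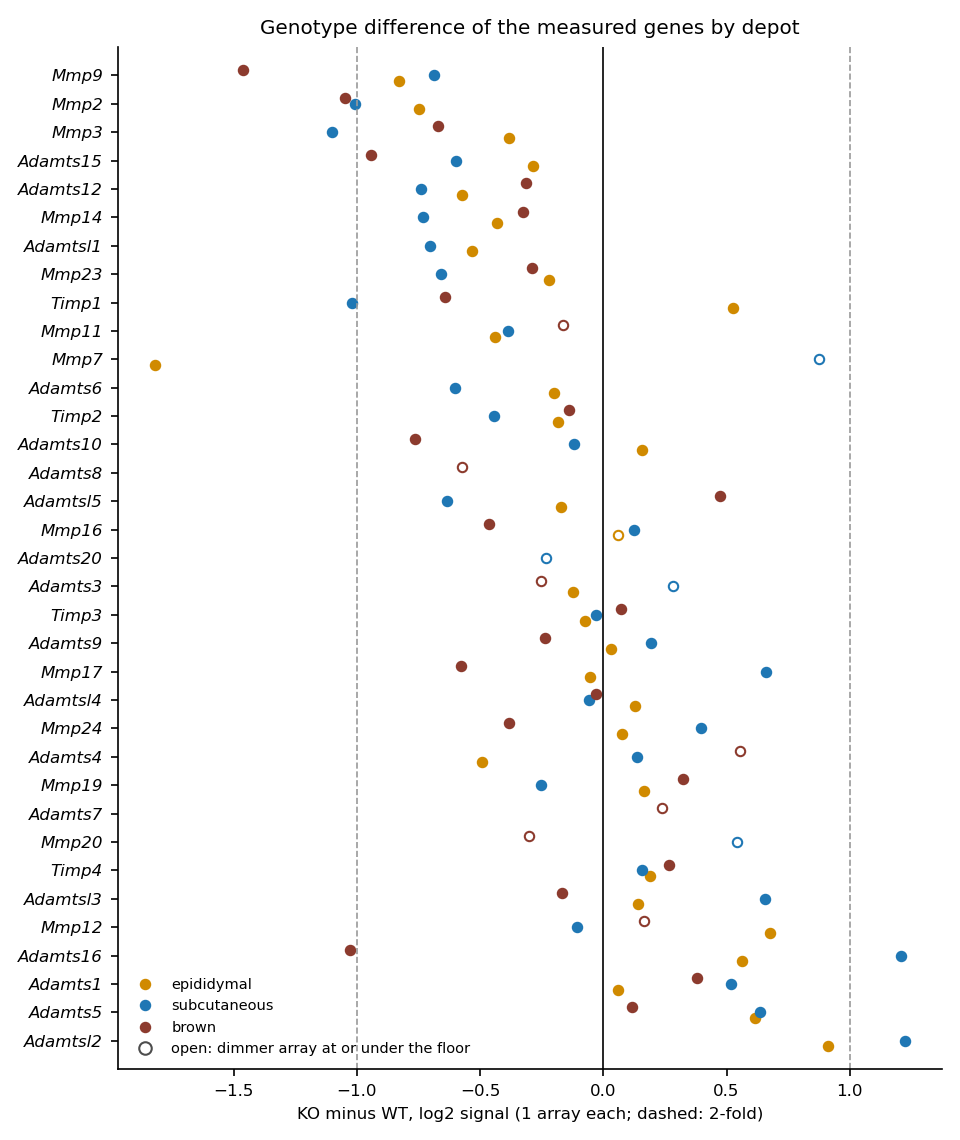
KO minus WT log2 difference of each of the 35 genes measured in at least 1 depot, 1 point per depot (colour) from 1 array against 1 array with no error bar, ordered by the mean. Open points are bounds, the solid line marks no difference and the dashed lines 2-fold: Mmp9 and Mmp2 have all points below 0, and Adamts5, Adamts1 and Timp4 all above.

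Counted over the families, 0 of 31 measured genes were at least 2-fold higher in epididymal fat, and 1 (Mmp7) was lower to that degree on the epididymal KO array, against 0.87% and 1.41% of all genes measured there. In subcutaneous fat 2 of 33 were at least 2-fold higher (Adamts16 and Adamtsl2) and 3 lower (Mmp2, Mmp3 and Timp1), against 2.2% and 0.722%. In brown fat 0 of 30 were at least 2-fold higher and 3 lower (Mmp2, Mmp9 and Adamts16), against 1.1% and 2.43%. The measured members had a median KO minus WT difference of -0.07 in epididymal fat, -0.11 in subcutaneous fat and -0.27 in brown fat. Over all genes these medians were -0.02, 0.04 and -0.03. The balance of all genes depended on the scaling. Past 2-fold, 115 genes were higher and 186 lower in epididymal fat (191 and 143 after centring each array on its median), 305 and 100 in subcutaneous fat (147 and 146), and 151 and 335 in brown fat (241 and 229). With quantile normalization the higher and lower counts were 150 and 136, 197 and 111, and 248 and 312 in the same order.

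Over all depots, 27 members were measured everywhere, and 9 of these 27, or 33.3%, were lower in every KO array by any amount, against 17.2% of the 12156 genes measured everywhere. They were Mmp2, Mmp3, Mmp9, Mmp11, Mmp14, Mmp23, Adamts12, Adamts15 and Timp2, of which Timp2 was no longer lower in every depot after median centring. Some of their differences lay within or near the spread between probe sets. Among these were Mmp14 (-0.33) and Adamts12 (-0.31) in brown fat and Adamts15 (-0.285) in epididymal fat. Mmp23 differed by only -0.22 in epididymal and -0.29 in brown fat. Higher in every KO array were 3 of 27, or 11.1% (Adamts1, Adamts5 and Timp4), against 16.2%. At least 1.5-fold lower in all 3 depots were 2 of 27, Mmp2 and Mmp9, against 0.296% of all genes, and 0 of 27 were at least 1.5-fold higher in all 3, against 0.23%. With quantile normalization the same 9 of 26 were lower and the same 3 higher, against 15.4% and 18.2% of all genes. After median centring 8 of 26 were lower and 3 higher, against 10.6% and 16.1%. With the floor at the 60th percentile 5 of 13 were lower (Mmp2, Mmp9, Mmp14, Adamts12 and Timp2) and 3 higher, against 18.5% and 17.2%. At the 20th percentile 10 of 34 were lower and 6 higher, against 15.4% and 16.2%. With probe sets averaged within a gene, Timp3 joined the lower ones and Adamts5 left the higher ones. That gave 10 and 2 of 27, against 16.2% and 16.3%. Median centring put the median difference of all genes at 0.11, -0.12 and 0.11 in epididymal, subcutaneous and brown fat, against -0.02, 0.04 and -0.03 on the deposited scale.

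In the limma fit of KO against WT over the depots, 0 of 31 members were called higher and 0 lower at an adjusted p under 0.05, against 0% of the 13232 genes in each direction, and the smallest adjusted p of any gene was 0.438. At an unadjusted p under 0.05, 2 members were higher (Adamts5 and Adamtsl2, 6.45% of 31 against 3.79% of all genes) and 8 lower (Mmp2, Mmp9, Mmp3, Mmp14, Mmp11, Mmp23, Adamts12 and Adamts15, 25.8% against 4.55%). Mmp2 had a log2 difference of -0.94 ± 0.13 (SE) and a limma adjusted p of 0.438, and was lower in 3 of 3 depots. Mmp9 had -0.99 ± 0.19 with a limma adjusted p of 0.46, and Mmp3 -0.72 ± 0.17 with 0.497, both also lower in 3 of 3 depots. When limma's variance prior was allowed to follow intensity, 19 genes rose and 14 fell out of 13232, and Mmp2 was the only member among them, with a limma adjusted p of 0.0289. Mmp9 then had a limma adjusted p of 0.155. Whether the genotype difference itself differed between brown and white fat was fitted as an added term with 1 residual degree of freedom. This limma fit called 0 of 31 members and 0% of all genes in either direction. A negative value means a KO minus WT difference that is lower in brown than in white fat. At an unadjusted p under 0.05 the fit held 1080 of all 13232 genes, among them 5 of 31 members. These were Adamts16 (-1.92 ± 0.36 SE, limma adjusted p = 0.522), Adamtsl2 (-1.07, at or under the floor in brown fat), Adamts10 (-0.78), Mmp9 (-0.70 ± 0.25 SE, limma adjusted p = 0.594) and Adamtsl5 (0.88).

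Markers of other cell types differed between the KO and WT arrays too, in part against the signs of the members above. The adipocyte precursor and fibroblast list (7 measured genes, Pdgfra, Pdgfrb and Cd34 among them) was lower in the KO array for 4 of 7 genes in epididymal fat, 7 of 7 in subcutaneous fat and 7 of 7 in brown fat, with medians of -0.09, -0.38 and -0.39. Its summed signal was 35082.3 (WT) and 31440.4 (KO), 41951.4 and 33549.5, and 14441.2 and 10912 in the same order. That sum was led by Dcn (24083.9 of the 35082.3 on the epididymal WT array). Within the list, Pdgfra differed by -0.38, -0.72 and -0.70, while Pi16 (0.84), Col1a1 (0.29) and Cd34 (0.17) were higher in epididymal fat. The 8 macrophage markers were higher for 8 of 8 in epididymal fat (median 0.22, summed signal 31540.4 and 35278.6), lower for 7 of 8 in subcutaneous fat (median -0.50, 39832.1 and 30567.4) and lower for 6 of 7 measured in brown fat (median -0.20, 8182 and 6228.4). Mmp9, made by macrophages and neutrophils, was lower in every depot. The macrophage list was higher in epididymal fat and mostly lower in subcutaneous and brown fat. Mast cell markers were lower with the deletion for 5 of 5, 6 of 6 and 4 of 4 measured genes (medians -0.44, -0.59 and -0.75, summed signal 737.5 to 5441.6 on WT and 454.9 to 3279.9 on KO arrays). Neutrophil markers were higher for 3 of 5 and 6 of 7 in the white depots and lower for 4 of 5 in brown fat (medians 0.07, 0.98 and -0.49, summed signal 785.2 to 1099.6 on WT and 579.5 to 2450.9 on KO arrays). Mesothelial markers were lower for 7 of 8 in epididymal fat and higher for 5 of 6 and 4 of 7 in the others (medians -0.44, 0.37 and 0.06, summed signal 486.5 to 10958.5 and 674.9 to 9393.8). Skeletal muscle markers were lower for 8 of 8 in epididymal and brown fat and higher for 7 of 8 in subcutaneous fat (medians -1.42, 0.19 and -4.63, summed signal 4871.4 to 51007.6 and 520.7 to 58244.9). The part of these cell types in the MMP, ADAMTS and TIMP values was not tested, and every gene of these lists passed the floor somewhere. In bulk tissue, fewer cells of a type and less RNA per cell cannot be told apart.

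Between depots, many members passed the test. In the limma fit of brown against white fat, taken as the mean of both white depots, 20 of 31 members were lower in brown fat and 1 was higher, against 31% and 21.6% of all genes tested. The member median was -0.88 and that of all genes -0.11. The lower genes included enzymes and inhibitors alike: the 4 TIMPs, both gelatinases, both measured stromelysins and 4 of 5 tested aggrecanase-type ADAMTS genes. The filter of at least 3 arrays above the floor favoured lower calls in brown fat. A gene above the floor only in white fat could pass it, and one above it only in brown fat could not. Adamts6, Adamtsl1 and Adamtsl2 passed it through white arrays alone and are among the lower members. Adamts8, above the floor only in brown fat, was not tested. The same filter applied to all genes. Without it, limma called 14 members lower and 0 higher.

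Adamts5 was 9.15-fold lower in brown fat (log2 difference -3.19 ± 0.16 SE, limma adjusted p = 0.000435), with the 4 white arrays between 3334.9 and 7248 and the brown arrays at 518.1 and 561.1. Mmp23 was 8.66-fold lower (-3.11 ± 0.15 SE, limma adjusted p = 0.000435), Adamts12 was 6.85-fold lower (-2.78 ± 0.14 SE, limma adjusted p = 0.000435) and Adamtsl4 was 4.92-fold lower (-2.30 ± 0.12 SE, limma adjusted p = 0.000435). None of these 4 genes had a brown array as bright as any white one. That follows largely from the calls on the same arrays and adds no support. The share of all genes without such overlap was not counted. The second Mmp23 probe set kept that order with a smaller gap, from 358.1 to 552.3 in white fat against 235 and 231.5 in brown fat. Timp2 was 4.82-fold lower (limma adjusted p = 0.000456), and Timp1 3.49-fold (0.00866), Timp4 1.90-fold (0.00278) and Timp3 1.49-fold (0.0133) by the same limma fit. Adamtsl1 was at least 4.19-fold lower (limma adjusted p = 0.000935) and Adamtsl2 at least 2.89-fold lower (limma adjusted p = 0.00774), both under the floor on both brown arrays, as was Adamts6 (at least 1.73-fold, limma adjusted p = 0.0132).

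Mmp12 was at least 9.15-fold lower in brown fat (limma adjusted p = 0.000478) and Mmp11 at least 3.52-fold lower (limma adjusted p = 0.000606), each with 1 of its brown arrays above the floor. Mmp14 was 3.12-fold lower (limma adjusted p = 0.000885), Adamts15 2.98-fold (0.00167), Adamts1 1.58-fold (0.0163) and Adamts9 1.37-fold (0.048). Adamts9 turned to 0.09 higher on the log2 scale when all its probe sets were averaged. For Mmp2 (1.85-fold, limma adjusted p = 0.0046), Mmp3 (2.63-fold, limma adjusted p = 0.00285) and Mmp9 (1.72-fold, limma adjusted p = 0.024) the white mean was carried by subcutaneous fat. The Mmp3 signal of both brown arrays was in fact above that of both epididymal arrays. On the probe sets used, the Mmp2 and Mmp9 signals of brown and epididymal fat overlapped. The second Mmp9 probe set had no such overlap. It read 222.2 (WT) and 108.4 (KO) in epididymal and 70.6 and 22.9 in brown fat, the last under the floor. Its white mean was not carried by subcutaneous fat alone. With all probe sets averaged, Mmp9 differed by -1.33 (limma adjusted p = 0.000862). Mmp24, a membrane enzyme known mainly from the nervous system, was the single member called higher in brown fat, by 1.73-fold (log2 difference 0.79 ± 0.19 SE, limma adjusted p = 0.0206). Another Mmp24 probe set overlapped between depots, with 140.8 (WT) and 85.9 (KO) in brown and 55.1 to 96.7 in white fat. The Mmp24 call was lost with the mean of all probe sets (limma adjusted p = 0.0704). It was also lost with the floor at the 20th percentile (0.0522) and without the filter (0.121). Of the 21 calls, 14 held whichever array was left out. Timp1 was lost without the brown KO array, Adamts6 without the brown WT array, and Mmp24, Mmp9, Adamts1 and Timp3 in 2 or 3 of the 6 fits, and Adamts9 in all 6.

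The white depots differed from each other in fewer members. In the limma fit of subcutaneous against epididymal fat, 4 of 31 members were higher (Mmp3, Mmp2, Mmp9 and Mmp14) and 2 lower (Mmp12 and Timp4), against 3.88% and 1.16% of all genes tested, with a member median of -0.08 and an all-gene median of 0.00. Mmp3 was 25.6-fold higher in subcutaneous fat (log2 difference 4.68 ± 0.21 SE, limma adjusted p = 0.0029), and it was the one call that held whichever array was left out, with limma adjusted p of 0.0498 at most. Mmp2 was 2.81-fold higher (1.49 ± 0.15 SE, limma adjusted p = 0.0115), Mmp9 2.69-fold (limma adjusted p = 0.0365) and Mmp14 1.96-fold (limma adjusted p = 0.0424). Both subcutaneous arrays exceeded both epididymal arrays for each of these 4 genes. Mmp12 was 4.38-fold lower in subcutaneous fat (-2.13 ± 0.22 SE, limma adjusted p = 0.0117) and Timp4 2.00-fold lower (limma adjusted p = 0.0248), again without overlap. The separation of the arrays follows largely from the calls on the same arrays and adds no support. Its share over all genes was not counted.

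The calls between the white depots rested on few arrays. Without either epididymal array only Mmp3 was left of the 6. Mmp9 was also lost without the subcutaneous KO array, Timp4 without either subcutaneous array, and Mmp14 in all 6 fits. After median centring the split was 3 higher and 8 lower in place of 4 and 2, and over all genes 514 and 1379 in place of 513 and 154 (416 and 255 with quantile normalization).

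**Figure D4:**
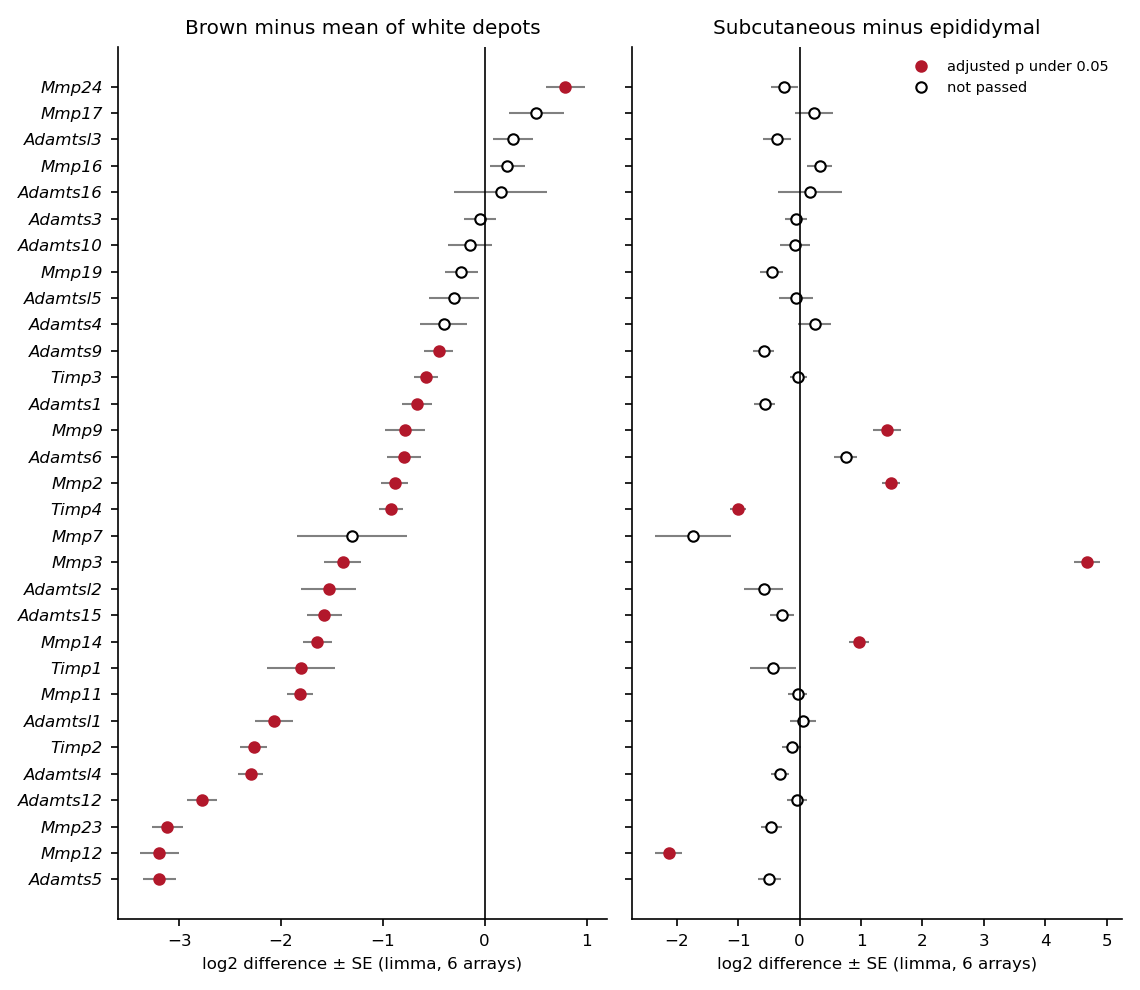
Log2 difference with its SE from limma for the 31 tested genes, brown against white fat in the left panel and subcutaneous against epididymal fat in the right panel, both as log2 signal, with filled points for an adjusted p under 0.05. Most points of the left panel lie below 0, with Mmp24 above, and Mmp3 stands apart on the right.

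Cell type markers moved with the depots as well. In brown against white fat, 8 of 8 macrophage markers (median -2.30), 7 of 7 precursor and fibroblast markers (median -1.60), 7 of 7 lymphoid markers (median -3.59) and 7 of 8 mesothelial markers (median -1.54) were lower by limma. The sums add probe sets without a common scale and follow their brightest genes: the fibroblast sum, mostly Dcn, was 31440.4 to 41951.4 in white and 10912 to 14441.2 in brown fat, the macrophage sum 30567.4 to 39832.1 and 6228.4 to 8182, and the lymphoid sum 14045.9 to 30707.7 and 948.8 to 1253.5. Between the white depots, 6 of 7 lymphoid and 4 of 5 mast cell markers were higher in subcutaneous fat and 7 of 8 mesothelial markers lower, with summed mesothelial signals of 10958.5 and 9393.8 in epididymal against 486.5 and 674.9 in subcutaneous fat. Macrophage and fibroblast lists differed there by medians of -0.04 and 0.28, with 1 gene of each called. The part of cell composition in the depot differences was not tested.

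Lists of related genes outside the families are read against the shares of all genes in brown against white fat, 31% lower and 21.6% higher. In that contrast, limma called 14 of 18 tested matrix substrates lower and 1 higher (Acan), among the lower ones fibronectin Fn1 by 8.89-fold (adjusted p = 0.000649), versican Vcan by 8.39-fold (0.000534), nidogen Nid1 by 4.15-fold (0.000511) and biglycan Bgn by 3.74-fold (0.0005). Of 11 tested genes of the related ADAM family, limma called 9 lower and 1 higher. Adam8 was lower by a log2 difference of -1.58 (limma adjusted p = 0.00118) and Adam19 2.71-fold lower (0.00124). The 1 higher was Adam12 (3.29-fold, limma adjusted p = 0.0052). Of 8 cathepsins and lysyl oxidases, limma called 7 lower, including cathepsin S (Ctss, 5.37-fold, adjusted p = 0.000574) and cathepsin K (Ctsk, 5.33-fold, 0.000635). Of 6 other inhibitors and activators 3 were lower and 1 higher by limma: the membrane MMP inhibitor Reck was 3.96-fold lower (adjusted p = 0.000533) and the MMP inducer Bsg 2.06-fold higher (0.00188). The plasminogen list had 1 of 4 lower, Plat, a share below that of all genes, and the astacin list 3 of 4 lower, Bmp1 and its enhancers Pcolce and Pcolce2, and 1 higher, Mep1a.

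The same lists held 1 call each way between the white depots by limma: Adam33 was 2.58-fold higher in subcutaneous fat (adjusted p = 0.0232) and Spock2 2.72-fold lower (adjusted p = 0.00935). For KO against WT no gene of these lists was called by limma, 0 of 51 tested. At an unadjusted p under 0.05, Adam23 (-0.64), Adam33 (-0.63), Loxl3 (-0.43) and Dcn (-0.33) were lower, and Ncan (1.55), Tfpi2 (0.69) and Lox (0.40) higher.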

How the data were processed

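Total RNA of 6 fat samples was measured on 1 Affymetrix array each. Per the submitters' processing notes, the authors made the deposited linear intensity values with MAS5 in Affymetrix Expression Console; no source used here gives a version. MAS5 scales each array to the same trimmed mean, which hides any difference in total RNA per cell, and it treats each array alone, which leaves dim probe sets noisy. Precision is limited by the number of arrays.

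Of 45037 probe sets (64 controls left out), 34945 had 1 gene symbol in the platform annotation, 932 several and 9160 none, and 34741 matched a RefSeq table of GRCm38.p6, with 0 symbols changed. The signals were raised to a floor of 63.2 and put on the log2 scale. Within a depot, differences of at least 2-fold were counted. Over all arrays, limma 3.58.1 in R 4.3.3 (lmFit, eBayes) was fitted with depot and genotype, with Benjamini-Hochberg adjustment over 13232 genes, those that passed the floor on 3 or more arrays. The code was tested on simulated data. Alternatives were quantile normalization, median centring, other floors, filters, fold thresholds and probe set rules, an intensity trend and leaving out each array; the brown-white by genotype term was added after seeing the data.

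The members and lists were chosen with earlier results of these data known. Values on all arrays are given for Mmp2, Mmp3, Mmp9, the TIMPs, members past 2-fold or called by limma, and the 5 with the largest mean genotype difference; each pathway list is shown by up to 4 genes of smallest p between depots. Acan and Adam12, single higher calls, and genes at an unadjusted p under 0.05 for KO against WT were named after their values were seen. Promoter sequences are those of RefSeq.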

Additional observations from a re-analysis of the deposited data

Results flagged for a closer look

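Adamts16 and Mmp7 differed by at least 1.5-fold in opposite directions in different depots. For Adamts16 the KO minus WT log2 difference of subcutaneous fat exceeded that of brown fat by 2.24 (1.21 against -1.03), while its second probe set differed by -0.05 in subcutaneous fat and was under the floor in brown fat. For Mmp7 the difference of subcutaneous fat exceeded that of epididymal fat by 2.7 (at least 0.88 against -1.82), with the subcutaneous WT signal of 40.6 under the floor. With 1 array per group, neither difference between these depots was tested; the brown-white by genotype term of limma, over all depots, was -1.92 for Adamts16 with an adjusted p of 0.522.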

How the results depend on the processing

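No paired analysis was possible because the labels give no replicate numbers by which to pair arrays; the depot, which pairs a KO with a WT array, is already a term of the limma fit. The numbers are members past 2-fold in the KO array, or called by limma, unless given for all genes. In epididymal fat the 1 member became 3 with the floor at the 20th percentile, 2 after median centring and 6 at 1.5-fold. Over all genes, 115 higher and 186 lower became 524 and 627, 191 and 143, and 578 and 860 in the same order. In subcutaneous fat the 5 became 8 with the floor at the 20th percentile, 3 with it at the 60th, 17 at 1.5-fold and 0 at 3-fold. All genes there went from 305 higher and 100 lower to 1297 and 322, 69 and 47, 1207 and 518, and 35 and 15. In brown fat the 3 became 10 with the floor at the 20th percentile, 1 with the mean of all probe sets, 1 after median centring, 7 at 1.5-fold and 0 at 3-fold. All genes gave 151 higher and 335 lower in brown fat. In the same settings they gave 860 and 1141, 84 and 205, 241 and 229, 664 and 1219, and 21 and 65. For KO against WT over depots the 0 became 1 with the intensity trend, and it was 0 in every fit that left out an array or a depot. For subcutaneous against epididymal fat the 6 became 11 after median centring, 1 with the floor at the 20th percentile, 0 without the filter, 1 without the floor, and 1 to 5 when an array was left out. For brown against white fat the 21 stayed between 14 and 22, and between 16 and 21 when an array was left out. Over all genes the subcutaneous-epididymal calls of 513 higher and 154 lower became 53 and 7 with the floor at the 20th percentile. They were 61 and 21 without the filter and 102 and 13 without the floor. Those of brown against white fat, 2852 and 4108, were 2089 and 2857 without the filter. Adamts9, lower in brown fat, turned to 0.0863 on the log2 scale with the mean of all probe sets. Of the alternatives for single genes, 376 kept direction and side of the threshold, 79 lost the call and 1 reversed. The causes were not tested.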
